A study of Mus musculus with 12 samples.

Results

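The angiopoietins Angpt1, Angpt2 and Angpt4, their receptors Tek and Tie1, and the angiopoietin-like factors Angptl2, Angptl4, Angptl6 and Angptl7 were followed across the 4 groups of an RNA-seq experiment on mouse fibroblasts. These 9 genes were picked by their symbols among the 54446 genes of the count table, by a rule that names no measured value but was set with earlier results of these data known. Wild-type NIH3T3 cells, an established line of mouse embryo fibroblasts, were compared with ΔN-VEGF cells, which descend from NIH3T3 and lack the coding region of N-VEGF, the N-terminal extension of the long VEGF-A protein, after editing with CRISPR-Cas9. Each line was kept in normoxia or for 16 h in hypoxia below 0.2% oxygen, which gave the groups wild-type normoxia, wild-type hypoxia, ΔN-VEGF normoxia and ΔN-VEGF hypoxia with 3 replicates each, 12 samples in all. The ΔN-VEGF cells were grown from picked antibiotic-resistant clones whose drug cassettes were then excised with VCre recombinase, and the number of clones behind the sequenced RNA is not given in the sources used here. A difference between the lines can therefore not be told apart from a difference between clones. Nothing in the labels says that the replicates came from separate cultures, so p-values measure the spread between these samples, which may be technical.

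Angiopoietins are secreted ligands of Tek, also called Tie2, a receptor tyrosine kinase of endothelial cells. Angpt1 activates Tek and keeps vessels quiescent, Angpt2 antagonises or weakly activates it depending on the setting, and Angpt4 is a further ligand with a human counterpart of the same name. Tie1 is a receptor of the same family that forms complexes with Tek. Angiopoietin-like proteins share the coiled-coil and fibrinogen-like domains of the angiopoietins but do not bind Tek, and Angptl4 is best known as an inhibitor of lipoprotein lipase that fasting, PPAR ligands and hypoxia induce. In vessels, mural cells and fibroblasts are sources of Angpt1, endothelial cells make and store Angpt2, and both receptors sit on the endothelium.

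Between 30519052 and 43056690 counts fell on genes per sample, and 14724 genes passed edgeR's filter on low counts and were tested. Replicate 2 of wild-type normoxia stood apart. Its log2 CPM (counts scaled to library size by TMM) correlated at 0.956 and 0.957 across genes with the other replicates of its group, which correlated at 0.996 with each other, and replicate 2 of ΔN-VEGF normoxia correlated at 0.986 with its own. All other replicate pairs reached at least 0.994. Calls that turn on these samples are given with and without them. All groups share a fit, so a sample left out can also change the adjusted p of comparisons that do not hold it. Vegfa, the edited gene, measured 86.2, 39.4 and 82.6 CPM in wild-type normoxia and 37.3, 34.2 and 35.5 CPM in ΔN-VEGF normoxia, and 277, 272 and 291 CPM against 437, 419 and 430 CPM in hypoxia. The line difference was -0.96 on the log2 scale in normoxia and 0.61 in hypoxia (edgeR, adjusted p = 0.039 and 0.074). A count over the whole gene does not test whether the N-VEGF segment is missing. All 11 hypoxia markers tested (Adm, Ankrd37, Egln3, Bnip3, Ndrg1, Pdk1, Slc2a1, Pgk1, Car9, P4ha1 and Ddit4) rose in hypoxia in both lines, with a median log2 fold change of 3.19 in the wild-type line and 3.49 in the edited one. Of all tested genes 18.2% and 26.9% passed as higher in the same order of lines (edgeR, adjusted p below 0.05), with medians of -0.07 and -0.01. Of 12 fibroblast markers 9 averaged above 1 CPM, led by Fn1 at 10900 CPM, while Fap averaged 0.00896 CPM. Their sum was 17300 to 26300 CPM in wild-type normoxia, 27400 to 29600 in wild-type hypoxia, 20700 to 21900 in ΔN-VEGF normoxia and 41700 to 43800 in ΔN-VEGF hypoxia. Of 10 tested, 5 were higher and 0 lower in ΔN-VEGF than in wild-type hypoxia (edgeR, adjusted p below 0.05), beside 10.8% and 9.36% of all tested genes.

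On the scale of CPM per kb of exon, which allows genes to be compared, the family fell into 3 abundant and 6 scarce members. Angptl2 was highest in every group, at 74.3 CPM per kb in wild-type normoxia, 161 in wild-type hypoxia, 66.6 in ΔN-VEGF normoxia and 338 in ΔN-VEGF hypoxia, and made up 66.4% to 77.2% of the summed level of the 9 genes. It stood above 95.9% to 98.9% of the 14719 tested genes with a known length. Angptl4 came next with 14.6, 25.2, 21.7 and 126 CPM per kb in the same order of groups, followed by Angptl6 with 5.04, 25.4, 1.88 and 43.9 CPM per kb. In wild-type hypoxia the samples of Angptl4 and Angptl6 overlapped, so their order there is not set, and in wild-type normoxia those of Angptl6 overlapped the range of Angptl7. The other 6 genes, the 3 angiopoietins and both receptors among them, stayed below 1 CPM per kb on average in every group. Among these 6, neighbours in the order overlapped between samples, except Angpt4 and Tek in wild-type normoxia, Tie1 and Tek in ΔN-VEGF normoxia and, in wild-type hypoxia, Tie1 and Angptl7, Angpt2 and Angpt1, and Angpt1 and Tek. Angpt1 changed places from the 5th of the 9 genes in wild-type normoxia to the 7th or 8th in the other groups.

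**Figure D1:**
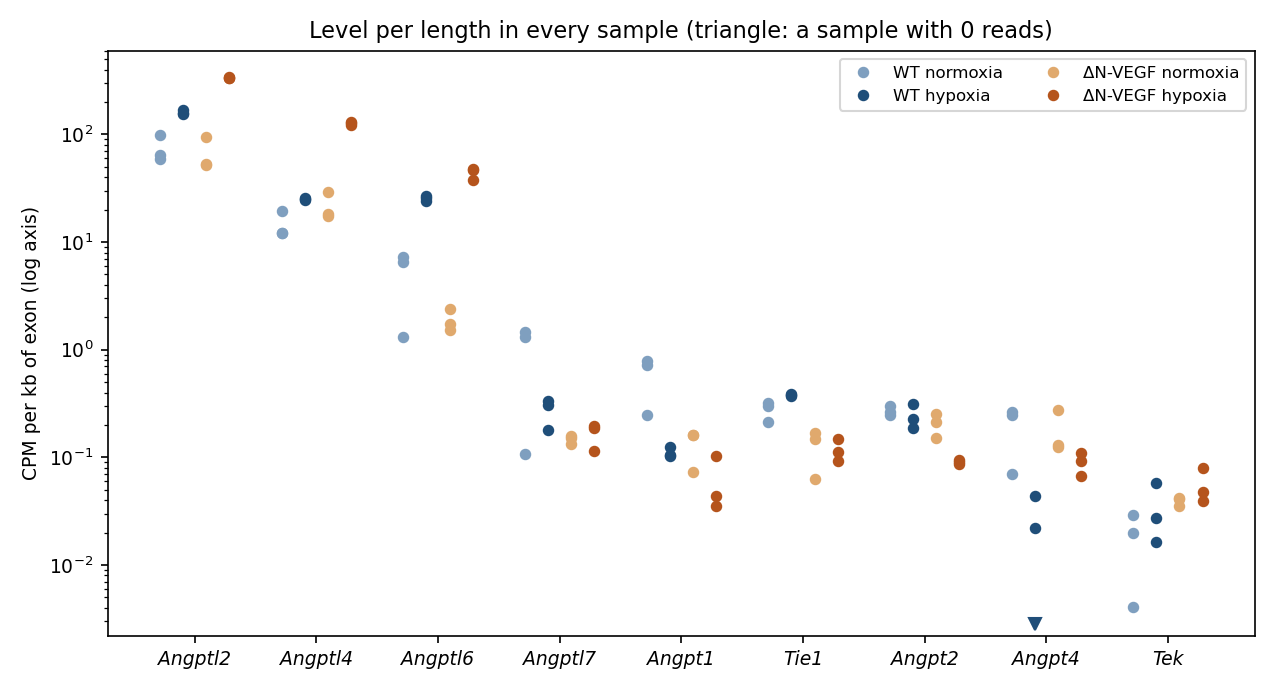
Level of each of the 9 genes in CPM per kb of exon (log axis), with 1 point per sample and 3 samples per group; the triangle marks a sample with 0 reads. Angptl2, Angptl4 and Angptl6 lie above the other genes in nearly all samples, and Tek, at 0.0176 to 0.0555 CPM per kb on average, is last in all groups but wild-type hypoxia, where Angpt4 is.

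Of the 9 genes 8 passed the filter on low counts and Tek did not. The question put to each was whether oxygen changed it in either line, whether the lines differed at either oxygen level, and whether the response itself differed between the lines. A gene was called at an adjusted p below 0.05 in edgeR's quasi-likelihood test, adjusted by Benjamini and Hochberg over all tested genes. In wild-type cells hypoxia raised 3 of the 8 (Angptl2, Angptl4 and Angptl6) and lowered 2 (Angpt1 and Angpt4), where 36.5% of all tested genes were called, 18.2% higher and 18.3% lower. Their median log2 fold change was 0.14, against -0.07 over all tested genes, and 6 of the 8 showed no overlap between the samples compared, as did 45.0% of all genes. In ΔN-VEGF cells hypoxia raised 3, again Angptl2, Angptl4 and Angptl6, and lowered 1, Angpt2, where 53.3% of all genes were called, 26.9% higher and 26.4% lower, with medians of 0.02 and -0.01. There 5 of the 8 did not overlap, against 70.5% of all genes. The share of the family called in ΔN-VEGF cells, 4 of the 8, was near the 53.3% of the whole table. In this fit the calls higher were angiopoietin-like genes and the calls lower angiopoietins in both lines. The angiopoietin-like gene Angptl7 was at -1.82 in wild-type cells (edgeR, adjusted p = 0.053) and was called lower there under 5 of 20 alternatives.

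Between the lines, 1 of the 8 genes was called in normoxia, Angpt1, lower in ΔN-VEGF cells, where 4.36% of all genes were called, 1.39% higher and 2.97% lower, and the median of the 8 was -0.76 against -0.03. Without overlap were 2 of the 8 and 16.3% of all genes. In hypoxia 4 were called, Angptl2 and Angptl4 higher and Angpt2 and Tie1 lower in ΔN-VEGF cells, where 20.1% of all genes were called, 10.8% higher and 9.36% lower, with medians of 0.04 and -0.01, and 7 of the 8 did not overlap, against 59.8% of all genes. The response to hypoxia was called different between the lines for 1 gene, Angptl4, larger in ΔN-VEGF cells, where 3.36% of all genes were called, 2.21% higher and 1.15% lower, with medians of 1.51 and 0.03. Wild-type normoxia enters the oxygen comparison in wild-type cells, the line comparison in normoxia and the interaction, so these share their controls. Replicate 2 of wild-type normoxia moved these counts. Without it all 9 genes passed the filter, and 5 were called between the lines in normoxia (48.9% of all genes) and 6 in the interaction (44.4% of all genes).

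**Figure D2:**
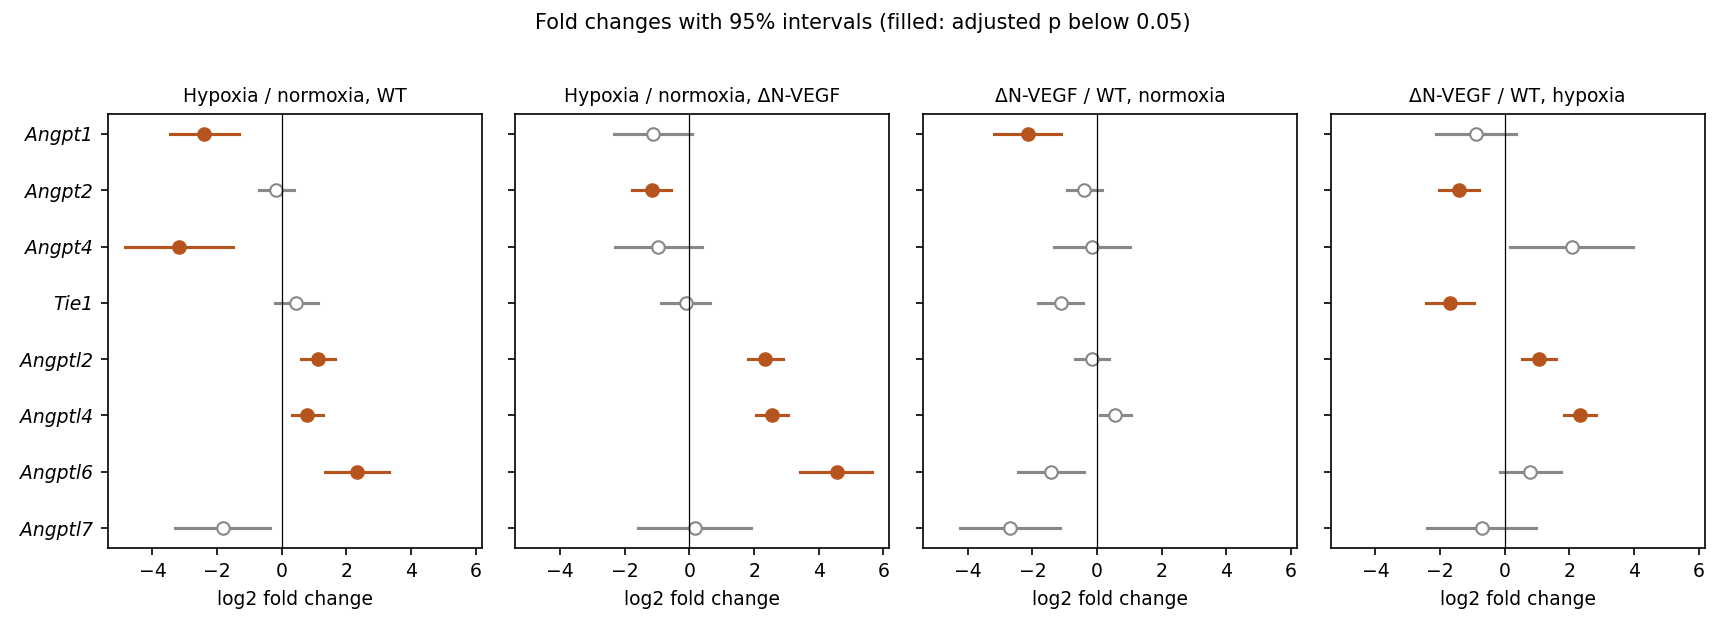
Log2 fold change of the 8 tested genes in the 4 pairwise comparisons, with 95% intervals; filled points passed an adjusted p of 0.05 in edgeR. The angiopoietin-like genes Angptl2, Angptl4 and Angptl6 lie to the right of 0 in both oxygen comparisons, where Angpt1, Angpt2 and Angpt4 lie to the left, those that passed as well as those that did not.

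Promoter sequence of RefSeq (assembly GRCm38.p6, 250 bases before to 50 after the start) was held for 6 of the 9 genes, and 3 of these are shown because hypoxia moved their transcripts in wild-type cells, Angpt4 down and Angptl2 and Angptl6 up. Capitals mark the letters ACGTG or GCGTG on either strand, the core bound by hypoxia-inducible factors; on the opposite strand they read CACGT or CACGC. Angpt4 (chr2:151910957-151911256, plus strand), Angptl2 (chr2:33215711-33216010, plus strand) and Angptl6 (chr9:20879661-20879960, minus strand) are printed along their own strand.
Angpt4: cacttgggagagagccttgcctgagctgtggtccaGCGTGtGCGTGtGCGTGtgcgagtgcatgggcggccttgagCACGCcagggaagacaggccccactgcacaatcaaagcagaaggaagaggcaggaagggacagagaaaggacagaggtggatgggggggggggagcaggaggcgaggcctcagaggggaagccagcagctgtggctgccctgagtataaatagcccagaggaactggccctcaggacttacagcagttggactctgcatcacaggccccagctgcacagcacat
Angptl2: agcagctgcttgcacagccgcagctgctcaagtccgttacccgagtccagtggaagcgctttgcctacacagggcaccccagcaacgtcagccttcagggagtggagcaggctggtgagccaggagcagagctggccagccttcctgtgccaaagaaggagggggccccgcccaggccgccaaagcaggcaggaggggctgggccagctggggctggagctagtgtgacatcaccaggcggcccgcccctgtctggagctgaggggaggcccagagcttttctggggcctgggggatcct
Angptl6: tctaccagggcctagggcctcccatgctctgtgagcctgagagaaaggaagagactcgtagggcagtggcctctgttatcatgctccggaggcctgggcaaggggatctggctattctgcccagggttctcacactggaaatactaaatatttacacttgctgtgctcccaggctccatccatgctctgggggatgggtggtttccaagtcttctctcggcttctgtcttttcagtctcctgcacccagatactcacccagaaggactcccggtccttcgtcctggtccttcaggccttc
Angpt4 held 4 matches to GCGTG and 0 to ACGTG, 3 of the 4 within a run of repeats. Angptl2 and Angptl6 held 0 of either, as did Tek, Tie1 and Angptl7. Of 32851 mouse promoters of this length 43.8% held at least 1 match to either motif. The absence of the letters from a window of this length says nothing of sites elsewhere. Angpt1, Angpt2 and Angptl4 were not analysed here in this respect.

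Angpt1, the agonist ligand (ENSMUSG00000022309, chr15:42424723-42676977, minus strand), fell with hypoxia in wild-type cells. It measured 3.77, 1.30 and 4.07 CPM in wild-type normoxia, 0.649, 0.548 and 0.535 CPM in wild-type hypoxia, 0.840, 0.379 and 0.833 CPM in ΔN-VEGF normoxia and 0.533, 0.225 and 0.184 CPM in ΔN-VEGF hypoxia. Every wild-type normoxia sample was above every sample of the other 3 groups, and in both lines the normoxia sample numbered 2 was the lowest of its group. Counts ran from 56 to 211 in wild-type normoxia and from 6 to 39 elsewhere, so the lower levels rest on few reads. In wild-type cells the log2 fold change with hypoxia was -2.39 ± 0.48 (SE; edgeR, adjusted p = 0.0026), a 5.25-fold fall, and it stayed called under all 20 alternatives (-2.75 to -2.13). In ΔN-VEGF cells the value was -1.12 ± 0.54, which was not called (edgeR, adjusted p = 0.11); it was called under 6 of 20 alternatives, among them total counts in place of TMM (-1.53, adjusted p = 0.041), without replicate 1 of ΔN-VEGF hypoxia (-1.74, adjusted p = 0.042) or without replicate 2 of wild-type normoxia (-1.13, adjusted p = 0.021, same test).

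In normoxia Angpt1 was 4.44-fold lower in ΔN-VEGF cells than in the parent line (log2 -2.15 ± 0.47, edgeR, adjusted p = 0.029). This call was lost without replicate 1 or 3 of wild-type normoxia, replicate 1 or 3 of wild-type hypoxia or any of the 3 ΔN-VEGF normoxia samples, with adjusted p from 0.053 to 0.11, while the fold change kept its sign. Without replicate 2 of wild-type normoxia it was -2.50 (adjusted p = 3.5e-05, edgeR). Same-numbered normoxia samples of the 2 lines deviated together, and with replicate number as a block over all 12 samples 2 genes, Angpt1 and Tie1, were called (4.37% of all genes). A block over the 6 normoxia samples alone called 0 of the 8 genes at an adjusted p and 4 at an unadjusted p below 0.05 in edgeR, and 1 of 13934 genes overall (0.00718%). Angpt1 in that fit was -2.09 with an adjusted p of 0.13, and -2.15 with an adjusted p of 0.31 in a fit of the 6 samples with no block. In hypoxia the line difference was -0.88 (interval -2.11 to 0.36; edgeR, adjusted p = 0.31), with an adjusted p of 0.044 in a fit of only the 6 hypoxia samples (edgeR). The test of the difference in response gave 1.27 ± 0.73 (edgeR, adjusted p = 0.35), so the fall in wild-type cells was not shown to differ from that in ΔN-VEGF cells with all samples in, and 1.62 (adjusted p = 0.024, edgeR) without replicate 2 of wild-type normoxia. Of the 5205 exonic bases of Angpt1, 14.2% also lie in exons of the antisense gene Gm17473, and without strand reads there cannot be assigned to either.

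Angpt2, the context-dependent ligand (ENSMUSG00000031465, chr8:18690263-18741562, minus strand), was lowest in ΔN-VEGF hypoxia. The samples gave 0.982, 0.906 and 1.12 CPM in wild-type normoxia, 0.831, 0.685 and 1.15 CPM in wild-type hypoxia, 0.926, 0.782 and 0.564 CPM in ΔN-VEGF normoxia and 0.345, 0.322 and 0.337 CPM in ΔN-VEGF hypoxia. The 3 samples of the last group lay below all 9 others, at 10 or 11 reads each. Hypoxia lowered Angpt2 2.26-fold in ΔN-VEGF cells (log2 -1.17 ± 0.28, edgeR, adjusted p = 0.0044). In wild-type cells the value was -0.17 with an interval of -0.71 to 0.37 (edgeR, adjusted p = 0.63). In hypoxia ΔN-VEGF cells had 2.65-fold less than wild-type cells (log2 -1.41 ± 0.28, edgeR, adjusted p = 0.0059), and both calls held under all 21 alternatives. In normoxia the line difference was -0.40 (interval -0.94 to 0.14, edgeR, adjusted p = 0.42). The responses of the 2 lines differed by -1.01 (interval -1.82 to -0.19), which did not pass adjustment (edgeR, adjusted p = 0.15). All exons of Angpt2 lie within the span of Mcph1 on the opposite strand but in none of its exons. Mcph1, a gene of chromosome condensation, fell by 0.80 on the log2 scale with hypoxia in ΔN-VEGF cells (edgeR, adjusted p = 0.0038) and changed by -0.30 in wild-type cells (adjusted p = 0.23, same test); its part in the counts of Angpt2 was not tested.

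Angpt4, a ligand at few reads (ENSMUSG00000027460, chr2:151911210-151945337, plus strand), was nearly silent in wild-type hypoxia. Its counts were 27, 7 and 30 in wild-type normoxia, 0, 3 and 2 in wild-type hypoxia, 14, 27 and 12 in ΔN-VEGF normoxia and 5, 8 and 7 in ΔN-VEGF hypoxia. In each line hypoxia samples lay below normoxia samples without overlap, and replicate 2 was the lowest sample of wild-type normoxia but the highest of ΔN-VEGF normoxia. Summed over samples and scaled for depth, wild-type normoxia held 9.87 times the reads of wild-type hypoxia (95% interval 4.01 to 31.4, counting error only). The fall was called in wild-type cells (edgeR, adjusted p = 0.0071) under all 18 alternatives that could give a value. In ΔN-VEGF cells the ratio was 1.96 (1.15 to 3.46, counting error only) and the test across samples was not passed (edgeR, adjusted p = 0.21). Between the lines, ΔN-VEGF hypoxia held 4.47 times the reads of wild-type hypoxia (1.63 to 15.3, counting error only), with adjusted p = 0.12, and 0.036 without replicate 2 of wild-type normoxia (edgeR). That sample is in neither hypoxia group and enters this comparison through the shared fit alone. In normoxia the line difference was -0.15 on the log2 scale (interval -1.32 to 1.03), and its sign turned with the sample left out. Without both normoxia samples numbered 2 it was -0.98 and called (edgeR, adjusted p = 0.033). The difference in response, 2.22, was not called with all samples (edgeR, adjusted p = 0.24) and was called without replicate 2 of wild-type normoxia (2.60, adjusted p = 0.022, edgeR).

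Tek, the angiopoietin receptor (ENSMUSG00000006386, chr4:94739289-94874976, plus strand), was at the edge of detection. Its counts were 6, 4 and 1 in wild-type normoxia, 5, 8 and 3 in wild-type hypoxia, 9, 7 and 8 in ΔN-VEGF normoxia and 12, 7 and 6 in ΔN-VEGF hypoxia. The lowest ΔN-VEGF normoxia sample was above the highest of wild-type normoxia, and the other groups compared overlapped. The ratio of reads scaled for depth in ΔN-VEGF over wild-type normoxia was 2.34 (95% interval 1.1 to 5.29), the ratio in hypoxia 1.75 (0.897 to 3.5), and hypoxia over normoxia gave 1.89 (0.822 to 4.5) in wild-type and 1.41 (0.773 to 2.58) in ΔN-VEGF cells, all with counting error only. Tek did not pass the filter over all 12 samples, so edgeR gave it no fold change there. In the fits that kept it, among them DESeq2 and edgeR with no filter, it was called in none of the comparisons.

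Tie1, the partner receptor of Tek (ENSMUSG00000033191, chr4:118471191-118490061, minus strand), was lower in ΔN-VEGF than in the parent cells. It measured 1.48, 1.05 and 1.56 CPM in wild-type normoxia, 1.92, 1.88 and 1.81 CPM in wild-type hypoxia, 0.732, 0.308 and 0.833 CPM in ΔN-VEGF normoxia and 0.721, 0.450 and 0.552 CPM in ΔN-VEGF hypoxia. The 6 wild-type samples were above all 6 ΔN-VEGF samples. In hypoxia ΔN-VEGF cells had 3.24-fold less Tie1 (log2 -1.70 ± 0.33, edgeR, adjusted p = 0.0057), a call that held under all 21 alternatives. In normoxia the value was -1.12 ± 0.32 and missed the threshold (edgeR, adjusted p = 0.077), passed it without replicate 2 of wild-type normoxia (-1.27, adjusted p = 0.0033, edgeR) and reached it with replicate number as a block (-1.15, adjusted p = 0.05 after rounding, edgeR). DESeq2 called it with all samples (adjusted p = 0.014). Oxygen changed Tie1 by 0.45 (interval -0.22 to 1.13) in wild-type and by -0.12 (interval -0.88 to 0.64) in ΔN-VEGF cells, neither called (edgeR, adjusted p = 0.27 and 0.79).

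Tek and Tie1 are markers of endothelium, and other endothelial genes were low in these cells. Of 12 endothelial markers 4 averaged above 1 CPM; the highest, Cdh5, averaged 8.18 CPM and Kdr 0.0019 CPM. Their summed level was 9.27 to 11.7 CPM in wild-type normoxia, 17.3 to 20.8 in wild-type hypoxia, 12.9 to 13.8 in ΔN-VEGF normoxia and 29.0 to 32.8 in ΔN-VEGF hypoxia. In hypoxia 1 gene made the sum higher in ΔN-VEGF cells, Cdh5, which averaged 22.2 CPM there and 6.03 CPM in wild-type cells (edgeR, adjusted p = 0.011). The other markers above 1 CPM were lower in value, none of them called, with Flt1 at 1.17 against 3.84 CPM, Eng at 3.66 against 4.41 CPM and Egfl7 at 2.85 against 3.17 CPM. Of the 6 endothelial markers tested only Cdh5 was called there, beside 20.1% of all tested genes, and the median log2 difference was -0.21 (-0.01 over all genes). Mural markers, of cells that make Angpt1, summed to 213 to 272, 235 to 268, 216 to 304 and 198 to 217 CPM in the same order of groups, nearly all from Cspg4 at 228 CPM on average. Of the 5 mural markers tested, 1 was called lower with hypoxia in ΔN-VEGF cells (26.4% of all tested genes). Between the lines in normoxia 1 was called lower in ΔN-VEGF cells (2.97% of all tested genes), and the other comparisons called 0. Of 6 adipocyte markers 0 averaged above 1 CPM. Of 6 haematopoietic markers 2 did, led by Csf1r, and their sum was 5.68 to 13.1 CPM in wild-type normoxia, 36.4 to 36.8 in wild-type hypoxia, 6.79 to 9.45 in ΔN-VEGF normoxia and 55.9 to 60.0 in ΔN-VEGF hypoxia, with Tyrobp at 0 reads throughout. Of 5 epithelial markers 1, Krt19, averaged above 1 CPM, and Epcam had 0 reads in all samples. Their sum was 0.697 to 2.44 CPM in wild-type normoxia, 8.18 to 8.80 in wild-type hypoxia, 0.355 to 1.1 in ΔN-VEGF normoxia and 1.13 to 1.29 in ΔN-VEGF hypoxia. Krt19 averaged 0.00761 and 7.44 CPM in wild-type normoxia and hypoxia and 0 and 0.712 CPM in the same order in ΔN-VEGF cells, and was called higher with hypoxia in both lines (edgeR, adjusted p = 4.6e-07 and 7.7e-06). The other epithelial markers tested, Krt8 and Cdh1, were lower in value with hypoxia in each line. Of these only Krt8 in the edited line was called, at 0.0312 against 0.208 CPM (edgeR, adjusted p = 0.026). The median log2 fold change of the 3 tested was -0.11 in the parent line and -0.5 in the edited one. All samples are labelled as NIH3T3 fibroblasts, and whether cells of other types were present was not tested. In bulk RNA fewer cells of a type and less RNA per cell cannot be told apart.

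**Figure D3:**
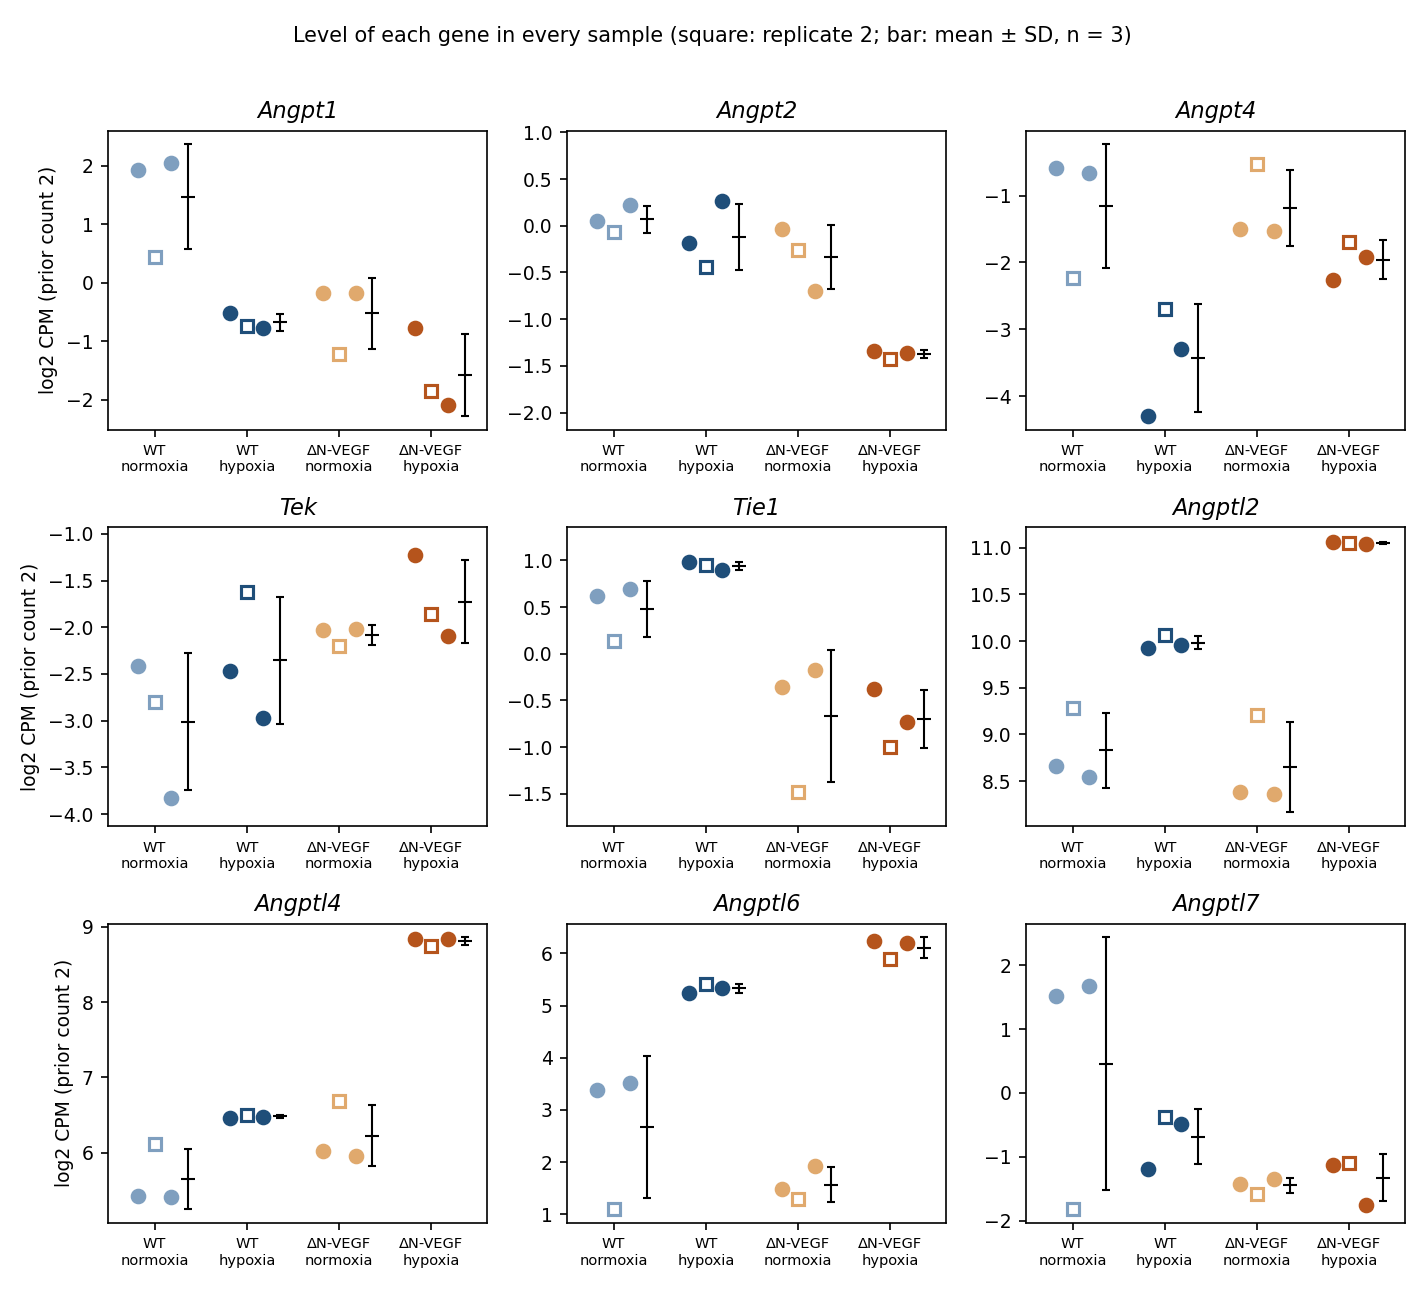
Log2 CPM (prior count 2) of the 9 genes in each of the 12 samples, with a panel per gene; the square is replicate 2 and the bar is the mean ± SD of 3 samples. Tie1 is lower in all 6 ΔN-VEGF samples than in all 6 wild-type samples, and Angptl2, Angptl4 and Angptl6 are highest in the 3 ΔN-VEGF hypoxia samples.

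Angptl2, a secreted factor with roles in inflammation and matrix remodelling (ENSMUSG00000004105, chr2:33216069-33247717, plus strand), rose with hypoxia in both lines and reached its highest level in ΔN-VEGF hypoxia. It measured 404, 623 and 373 CPM in wild-type normoxia, 971, 1069 and 997 CPM in wild-type hypoxia, 335, 592 and 329 CPM in ΔN-VEGF normoxia and 2142, 2121 and 2102 CPM in ΔN-VEGF hypoxia. Replicate 2 was the highest normoxia sample in both lines, and no hypoxia sample came down to it. The rise was 2.17-fold in wild-type cells (log2 1.12 ± 0.24, edgeR, adjusted p = 0.0036) and 5.07-fold in ΔN-VEGF cells (log2 2.34 ± 0.25, edgeR, adjusted p = 1.6e-05), and both calls held under all 21 alternatives. In hypoxia ΔN-VEGF cells held 2.1 times the level of wild-type cells (log2 1.07 ± 0.24, edgeR, adjusted p = 0.0099), also under all 21. In normoxia ΔN-VEGF and wild-type cells averaged 419 ± 150 and 467 ± 136 CPM (SD, n = 3), a log2 difference of -0.16 (interval -0.67 to 0.36; edgeR, adjusted p = 0.76). The responses differed by 1.22 ± 0.33, which did not pass with all samples (edgeR, adjusted p = 0.069). It passed without replicate 2 of wild-type normoxia (0.95, adjusted p = 0.0099), without replicate 2 of ΔN-VEGF normoxia (1.55, adjusted p = 0.012) and with replicate number as a block (1.24, adjusted p = 0.034, all by edgeR). With all samples it also passed by DESeq2 (adjusted p = 0.012) and, in edgeR, with no filter (adjusted p = 0.044) or total counts (adjusted p = 0.047). Angptl2 lies within the span of Ralgps1 on the opposite strand and in none of its exons; Ralgps1 averaged 10.3 to 13.5 CPM in the 4 groups and changed with hypoxia by -0.02 and -0.09 in the wild-type and ΔN-VEGF lines.

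Angptl4, the lipase inhibitor (ENSMUSG00000002289, chr17:33773750-33781575, minus strand), was the 1 gene of the 8 whose response to hypoxia was called different between the lines by edgeR with the filter, TMM scaling and all samples. Its samples gave 42.9, 69.2 and 42.7 CPM in wild-type normoxia, 88.0, 90.9 and 89.1 CPM in wild-type hypoxia, 64.8, 103 and 62.3 CPM in ΔN-VEGF normoxia and 459, 430 and 456 CPM in ΔN-VEGF hypoxia. Hypoxia and normoxia did not overlap in either line, and the ΔN-VEGF hypoxia samples lay far above all others. The rise was 1.73-fold in wild-type cells (log2 0.79 ± 0.22, edgeR, adjusted p = 0.014), a call that was lost without replicate 1 or 3 of wild-type normoxia (0.67, adjusted p = 0.052 in both, edgeR). In ΔN-VEGF cells it was 5.83-fold (log2 2.54 ± 0.23, edgeR, adjusted p = 4.9e-06) and held under all 21 alternatives. The difference between the responses was 1.75 ± 0.31 on the log2 scale, with an interval of 1.08 to 2.42 (edgeR, adjusted p = 0.016), so the fold of the rise was 3.37 times that of wild-type cells. Without replicate 1 or 3 of wild-type hypoxia, ΔN-VEGF normoxia or ΔN-VEGF hypoxia this call was lost at adjusted p of 0.056 to 0.062, while the value stayed between 1.61 and 1.75. Directly compared in hypoxia, ΔN-VEGF cells held 5.01 times the wild-type level (log2 2.33 ± 0.22, edgeR, adjusted p = 0.00012), a call under all 21 alternatives. In normoxia the difference was 0.57 ± 0.22 (edgeR, adjusted p = 0.17) and was called without replicate 2 of wild-type normoxia (0.86, adjusted p = 0.0013, edgeR).

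Angptl6, a hepatokine also called angiopoietin-related growth factor (ENSMUSG00000038742, chr9:20873808-20879727, minus strand), had the largest rise with hypoxia of the 8 genes in both lines. It measured 10.4, 2.09 and 11.4 CPM in wild-type normoxia, 38.0, 42.4 and 40.2 CPM in wild-type hypoxia, 2.76, 2.39 and 3.77 CPM in ΔN-VEGF normoxia and 75.7, 59.2 and 73.7 CPM in ΔN-VEGF hypoxia. Replicate 2 of wild-type normoxia was below the ΔN-VEGF normoxia samples, and without it the 4 groups did not overlap. The rise was 5.03-fold in wild-type cells (log2 2.33 ± 0.45, edgeR, adjusted p = 0.0022) and 23.4-fold in ΔN-VEGF cells (log2 4.55 ± 0.51, edgeR, adjusted p = 2.5e-05), called under 20 and 21 of 21 alternatives. In normoxia ΔN-VEGF cells were at -1.43 ± 0.46 against wild-type cells, which was called by DESeq2 (adjusted p = 0.027) but not by edgeR (adjusted p = 0.11), and at -1.87 without replicate 2 of wild-type normoxia (adjusted p = 4e-06, edgeR). In hypoxia they were at 0.79 ± 0.43 (edgeR, adjusted p = 0.23), at 0.79 with an adjusted p of 0.00026 without that sample, and at 0.78 with an adjusted p of 4.6e-07 in a fit of only the 6 hypoxia samples (edgeR). That sample is in neither hypoxia group and enters this comparison through the shared fit alone. The difference between the responses, 2.22 ± 0.63, likewise did not pass with all samples (edgeR, adjusted p = 0.079). It passed without replicate 2 of wild-type normoxia (2.66, adjusted p = 1.1e-06, edgeR), with no filter (adjusted p = 0.034, edgeR) and by DESeq2 (adjusted p = 0.0089). Of the 1582 exonic bases of Angptl6, 16.8% also lie in exons of A230050P20Rik on the opposite strand, and reads there cannot be assigned without strand.

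Angptl7, a matrix protein of cornea and trabecular meshwork (ENSMUSG00000028989, chr4:148495183-148500460, minus strand), was the angiopoietin-like gene of the 4 that edgeR, with the filter on low counts and TMM scaling, called in none of the comparisons over all samples. It gave 2.81, 0.232 and 3.16 CPM in wild-type normoxia, 0.389, 0.719 and 0.663 CPM in wild-type hypoxia, 0.323, 0.284 and 0.343 CPM in ΔN-VEGF normoxia and 0.407, 0.418 and 0.245 CPM in ΔN-VEGF hypoxia. Replicates 1 and 3 of wild-type normoxia, with 123 and 164 reads, stood above the 10 other samples, which held 8 to 26 reads each. The values nearest to the threshold were those for hypoxia in wild-type cells (-1.82 ± 0.67, edgeR, adjusted p = 0.053) and the line difference in normoxia (-2.70 ± 0.70, edgeR, adjusted p = 0.056). DESeq2 called both (adjusted p = 0.027 and 0.0033), as did edgeR with no filter (adjusted p = 0.025 and 0.019), and edgeR with total counts in place of TMM called the first (adjusted p = 0.031). Without replicate 2 of wild-type normoxia the values were -2.34 and -3.21 and both were called (adjusted p = 3.3e-06 and 2.1e-06, edgeR), as was the difference in response (2.50, adjusted p = 0.00037, edgeR). In ΔN-VEGF cells oxygen changed it by 0.17 (interval -1.58 to 1.91). Angptl7 lies within the span of Mtor on the opposite strand and in none of its exons. Mtor, the growth-controlling kinase, averaged 76.4, 39.7, 75.7 and 35.4 CPM in wild-type normoxia, wild-type hypoxia, ΔN-VEGF normoxia and ΔN-VEGF hypoxia, and its part in the counts of Angptl7 was not tested.

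Without both normoxia samples numbered 2 all 9 genes passed the filter, and more were called in every comparison, in the family as in the whole table. Hypoxia then moved 6 of the genes in wild-type cells, 3 higher and 3 lower (65.3% of all genes), and 5 in ΔN-VEGF cells, 3 higher and 2 lower (71.4%). Between the lines 7 were called in normoxia, 1 higher and 6 lower (53.6%). Angptl4 was the higher gene there, and the lower ones, Angpt1, Tie1, Angptl6, Angptl7, Angpt4 and Angptl2, included Angptl2 at -0.22 (edgeR, adjusted p = 0.0067). In hypoxia 7 were called, 4 higher and 3 lower (55.8%), with Angpt1, Angpt4 and Angptl6 gained. The samples left out are in neither hypoxia group and enter that comparison through the shared fit alone. The responses differed for 7, 6 in the direction of a higher value in ΔN-VEGF cells (52.8%), and Tie1, at -0.74, was the 1 in the other direction (edgeR, adjusted p = 0.048). Angptl2, Angptl4 and Angptl6 rose and Angpt1 and Angpt4 fell in wild-type cells in this fit too, and Tek was called in none of the comparisons. Each normoxia group then rests on 2 samples.

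**Figure D4:**
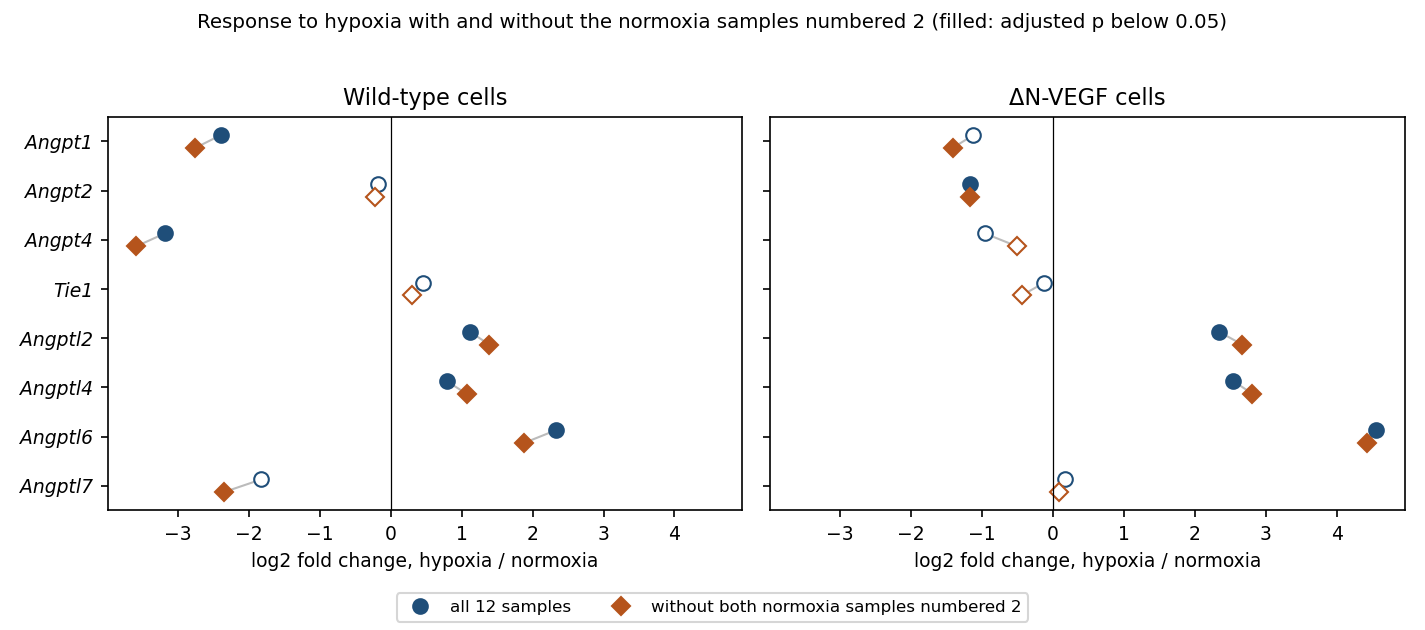
Log2 fold change of hypoxia over normoxia in wild-type (left) and ΔN-VEGF cells (right) for the 8 tested genes, over all 12 samples (circles) and without both normoxia samples numbered 2 (diamonds); filled symbols passed an adjusted p of 0.05 in edgeR. Each of the 8 genes kept its sign in both lines, and Angptl7 in wild-type cells and Angpt1 in ΔN-VEGF cells gained a call.

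Around the receptors (23 genes of Tek signalling, its adaptors and phosphatase, and the integrins that angiopoietin-like factors bind) 21 genes were tested, and Ptprb and Grb7 were too low. Hypoxia raised 6 and lowered 1 in wild-type cells and raised 8 and lowered 3 in ΔN-VEGF cells, shares near the 36.5% and 53.3% of all tested genes called, with medians of 0.15 and 0.12 against -0.07 and -0.01 over all genes. The adaptor Shc1 rose on the log2 scale by 0.92 in wild-type cells and 1.42 in ΔN-VEGF cells (edgeR, adjusted p = 1.7e-05 and 4e-07). The integrin subunit Itgav rose by 0.85 and 1.31 (edgeR, adjusted p = 0.0002 and 5e-06), and the kinase Pak1 fell by 0.63 and 1.0 (edgeR, adjusted p = 0.00031 and 6.4e-06). Tnip2, an inhibitor of NF-κB signalling that binds Tek, rose by 1.36 in ΔN-VEGF cells (edgeR, adjusted p = 0.00013) and was at 0.49 in wild-type cells (edgeR, adjusted p = 0.062). Grb14, an adaptor that binds Tek, rose by 0.49 in wild-type cells (edgeR, adjusted p = 0.0021) and was at 0.11 in ΔN-VEGF cells (edgeR, adjusted p = 0.36). Between the lines 2 of the 21 were lower in ΔN-VEGF normoxia (4.36% of all genes called), Itgb3 at -1.15 and Grb2 at -0.49 (edgeR, adjusted p = 0.0027 and 0.015). In hypoxia 3 were higher and 4 lower (20.1% of all genes), among them the matrix protein Svep1, a ligand of Tie1, at 1.47 and Itgb3 at -1.37 (edgeR, adjusted p = 0.028 and 0.00033). The response differed for 0 of the 21 by edgeR (3.36% of all genes), with 9 at an unadjusted p below 0.05, and for 3 by DESeq2.

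Of 14 genes of lipase control and fat use that surround Angptl4, 10 were tested. Lpl itself, the lipase that Angptl4 inhibits, averaged 11.4, 5.10, 5.33 and 4.40 CPM in wild-type normoxia, wild-type hypoxia, ΔN-VEGF normoxia and ΔN-VEGF hypoxia. It fell by 1.16 on the log2 scale with hypoxia in wild-type cells (edgeR, adjusted p = 0.00063) and was at -0.28 in ΔN-VEGF cells (edgeR, adjusted p = 0.24), responses whose difference of 0.88 was not called (edgeR, adjusted p = 0.091). It was at -1.09 in ΔN-VEGF against wild-type normoxia (edgeR, adjusted p = 0.0095). In all, hypoxia raised 3 and lowered 3 in wild-type cells and raised 6 and lowered 2 in ΔN-VEGF cells, with medians of 0.27 and 0.48, where 36.5% and 53.3% of all tested genes were called with medians of -0.07 and -0.01. Lmf1 and Sel1l, which help lipases mature, rose by 1.48 and 1.08 in wild-type and by 1.80 and 2.06 in ΔN-VEGF cells, and the lipid droplet protein Plin2 by 1.23 and 1.44 (edgeR, adjusted p from 9.1e-08 to 0.00014). Cpt1a, which carries fatty acids into mitochondria, fell by 1.77 and 1.08 (edgeR, adjusted p = 0.0026 and 0.022). Between the lines 1 was higher and 2 lower in ΔN-VEGF normoxia (4.36% of all genes called), the lower ones Lpl and Fabp4, the latter under 1 CPM and named after its values were seen. In hypoxia 3 were higher, Lipg, Sel1l and Lmf1 (20.1% of all genes). Lipg, endothelial lipase, was at 0.85 in normoxia and 1.97 in hypoxia (edgeR, adjusted p = 0.016 and 5.3e-05). The response of 2 of the 10 differed (3.36% of all genes), Lipg by 1.12 and Sel1l by 0.98 (edgeR, adjusted p = 0.029 and 0.028), both larger in ΔN-VEGF cells. Gpihbp1, which anchors lipoprotein lipase to capillaries, was too low to test.

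Of 14 transcription factors known to act on members of the family, 11 were tested, while Epas1, Ppara and Pparg were too low. Hypoxia raised 5 and lowered 1 in wild-type cells and raised 6 and lowered 2 in ΔN-VEGF cells, with medians of 0.04 and 0.73, beside the same 36.5% and 53.3% of all tested genes and medians of -0.07 and -0.01. Ppard, a fatty acid receptor that drives Angptl4, rose by 0.72 and 1.26 (edgeR, adjusted p = 0.00017 and 1.6e-06), and its partner Rxra fell by 0.72 and 0.97 (edgeR, adjusted p = 9.8e-05 and 6.3e-06). Klf2 rose by 1.76 and 0.88, Ets1 by 1.09 and 1.17 and Smad3 by 0.74 and 1.25 (edgeR, adjusted p from 2e-05 to 0.0043). Hif1a, the oxygen-regulated subunit whose control is mostly at the protein, was at -0.42 in wild-type cells (edgeR, adjusted p = 0.16) and rose by 0.75 in ΔN-VEGF cells (edgeR, adjusted p = 0.014). Between the lines 0 of the 11 were called in normoxia by edgeR (4.36% of all genes) or DESeq2, with 1 at an unadjusted p below 0.05 in edgeR, and 2 were higher and 2 lower in hypoxia (20.1% of all genes), with Hif1a at 1.12, Klf2 at -0.78, Ppard at 0.48 and Rxra at -0.32 (edgeR, adjusted p from 0.0057 to 0.027). The response differed for 0 of the 11 by edgeR (3.36% of all genes), with 4 at an unadjusted p below 0.05, and for 3 by DESeq2. Of the other angiopoietin-like genes, Angptl1 had 0 reads in all samples, and Angptl8 had at most 6 reads in a sample.

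The genes most like each member were sought by Pearson's r of log2 CPM over the 12 samples, among the genes that averaged at least 1 CPM. The samples fall into 4 groups, and what made the values high was not tested. They are given as a description. For Angptl2 these were Mlec (0.996), Tmem115 (0.992) and Arhgap33 (0.990). Angptl4 was closest to Calu (0.991), Map2k7 (0.990) and Zscan25 (0.988), and Angptl6 to Tnni1 (0.996), Akap8l and Stx5a (0.994 each). Mlec, a lectin of the endoplasmic reticulum, and Calu, a calcium-binding protein there, head the first of these sets. Tie1 was closest to AW554918 (0.978), Dock11 (0.964) and Gstm2 (0.955), and Angptl7 to Smim1 (0.980), Gm12473 (0.967) and Fgd2 (0.966). Among the ligands Angpt1 was closest to Zbtb12 (0.966), Angel1 (0.964) and Lpl (0.956), the lipase described above. Angpt2 was closest to Ccdc122 (0.947), and Angpt4 to Cdip1 (0.941).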

How the data were processed

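RNA of 12 samples was sequenced as 80-bp single reads from TruSeq RNA v2 libraries, a kit that does not mark strand. The authors trimmed reads (Trim Galore, cutadapt 1.10), aligned them to GRCm38.p6 with TopHat2 2.1.0 and Bowtie2 2.2.6, and deposited raw HTSeq 0.6.1 counts per gene; strand and overlap settings are not given in the sources used here. Groups and replicate numbers came from the labels. Counts were compared in R 4.3.3 with edgeR 4.0.16 (with limma 3.58.1): filterByExpr, TMM, 1 mean per group over all 12 samples, quasi-likelihood test, Benjamini-Hochberg adjustment over 14724 genes. The table holds no columns of samples outside the study. SE is the log2 fold change divided by the root of F, and 95% intervals use the t quantile. CPM per kb used exon lengths of GENCODE vM21. Alternatives included DESeq2 1.42.0, other scalings and filters, each sample left out, and replicate number as a block. In normoxia, departures from the group mean correlated between the lines at 0.36 to 0.50 for samples with the same number. Both samples numbered 2 stood apart in their groups, which can give such values by itself. Pairing of the samples numbered 1 and 3 is therefore not shown. Elsewhere the correlations ran from -0.02 to 0.11. The code was tested on simulated data. The 9 genes and all lists were chosen with earlier results of these data known. Of each list, at most 4 called genes per comparison with a mean of at least 1 CPM were named, those with the largest fold changes; a gene so named in 1 comparison is also given in others, and the 11 hypoxia markers are all named.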

Additional observations from a re-analysis of the deposited data

Results flagged for a closer look

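The response of Angptl4 to hypoxia differed between the lines by a direct test: the log2 fold change in ΔN-VEGF cells exceeded that in wild-type cells by 1.75 (SE 0.31, edgeR's quasi-likelihood test, adjusted p = 0.016). The rises were 2.54 and 0.79 on the log2 scale, and all 3 hypoxia samples were above all 3 normoxia samples in each line. The call was lost under 6 of 19 alternatives, all with 1 sample left out, at adjusted p of up to 0.062 (edgeR). The differences in response of Angptl6 and Angptl2 were 2.22 and 1.22 and were not called over all samples (edgeR, adjusted p = 0.079 and 0.069).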

How the results depend on the processing

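The rises of Angptl2 in both lines, of Angptl4 and Angptl6 in ΔN-VEGF cells, the falls of Angpt1 and Angpt4 in wild-type cells and the calls in hypoxia between the lines for Angpt2, Tie1, Angptl2 and Angptl4 kept direction and call under every alternative that gave a value. The number of the 8 genes called in wild-type hypoxia, 5, was 3 with at least 10 counts in every sample, where 5 were tested (39.8% of all genes), 2 with a replicate block over only the 6 samples (13.3%), and 6 with total counts (45.6%), no filter (16.5%) or DESeq2 (35.2%). The line comparison in normoxia, with 1 gene called, gave 2 with no filter (1.83% of all genes), 0 with at least 10 counts in every sample (4.54%), 4 with DESeq2 (8.16%), 7 without both normoxia samples numbered 2 (53.6%), 2 with the replicate block (4.37%), 0 in a fit of only the 6 samples (0.108%) and 0 with the replicate block over those 6 (0.00718%); leaving out 1 sample gave 0 to 5 (1.1% to 48.9%), the 5 without replicate 2 of wild-type normoxia. Where edgeR called 0, between 3 and 5 genes had an unadjusted p below 0.05. The line comparison in hypoxia, with 4, gave 7 without both normoxia samples numbered 2 (55.8%), 6 without replicate 2 of wild-type normoxia (42.4% of all genes), and 6 of 7 tested in a fit of only the 6 hypoxia samples (57%), with or without the replicate block (61.1% with it). The interaction, with 1, gave 2 with total counts (6.13% of all genes), 3 with no filter (1.47%), 3 with DESeq2 (10.7%), 7 without both normoxia samples numbered 2 (52.8%) and 2 with the replicate block (3.29%), and 0 to 6 with 1 sample left out (0.493% to 44.4%), the 6 without replicate 2 of wild-type normoxia. In wild-type cells the rise of Angptl6 was 2.57 (adjusted p = 0.073, edgeR) and that of Angptl4 0.81 (adjusted p = 0.055, edgeR) with a replicate block over only the 6 samples. In ΔN-VEGF cells the value of Angpt1 was called with the replicate block over 12 samples (-1.11, adjusted p = 0.046, edgeR) and over 6 (-1.16, adjusted p = 0.042, edgeR), and that of Angpt4 over 6 (-0.96, adjusted p = 0.05 after rounding, edgeR). In the oxygen comparisons and between the lines in hypoxia same-numbered samples deviated together at most weakly (correlations of -0.02 to 0.11). There the block over 12 samples gave 5, 5 and 4 called genes (38.6%, 55.5% and 22% of all genes), against 5, 4 and 4 without it. The causes were not tested, apart from smaller sets of genes or samples where the alternative makes them so.

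Signs turned only for values that were uncalled both with all samples and in the fit that turned them. Of these, Angpt4 and Angptl2 between the lines in normoxia were called lower without both normoxia samples numbered 2. Tie1 with hypoxia in ΔN-VEGF cells was 0.01, 0.12 and 0.02 without replicate 1 or 3 of ΔN-VEGF normoxia or replicate 2 of ΔN-VEGF hypoxia (-0.45 to 0.12 over samples left out). Angptl7 there was -0.23 with total counts. Angpt4 between the lines in normoxia was 0.12 and 0.08 without replicate 1 or 3 of wild-type normoxia and 0.05 without replicate 1 or 3 of ΔN-VEGF normoxia (-0.60 to 0.12), and Angptl2 was 0.12 without replicate 2 of wild-type normoxia (-0.49 to 0.12). Total counts in place of TMM moved the median of all genes to -0.30 and -0.41 for hypoxia in the wild-type and the ΔN-VEGF line, -0.23 between the lines in hypoxia and -0.15 in the interaction, and the share of calls that were higher from 49.8% to 28.2%, 50.5% to 25.6%, 53.5% to 17.1% and 65.9% to 16.3%. Depth limits Tek, Angpt1, Angpt4 and Angptl7, which rest on under 30 reads in most samples.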
